A study of Mus musculus with 24 samples.

Results

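Rab genes encode small GTPases of the endomembrane system. The 46 members described here are all genes of the deposited normalized table whose symbol is Rab followed by a number and at most 1 further letter, out of 12889 genes in that table. Within that table the choice went by symbol alone, but the table holds fewer genes than the 18919 of the count table. All 46 members were also among the 13294 genes of the count table that were tested. The count table held 10 further symbols of this form, with a highest count in any library between 2 and 19, and these are not members. The Rab genes with the lowest peak counts are thus left out. RNA sequencing was done on primary microglia, the resident macrophages of the brain, taken from mice of age p0. CD14-deficient cells (KO, strain B6.129S4-Cd14tm1Frm/J) and wild-type cells (WT, C57BL/6) were each left untreated or given a stimulus for 3 h. One stimulus was Re-LPS, a short-chain lipopolysaccharide, used at 0.1 ng/ml and at 10 ng/ml. The other was FN, fibronectin from mouse, a matrix and plasma glycoprotein, at 100 µg/ml. Each of the 8 groups had 3 libraries, which the series describes as separate preparations of cells. The Cd14 allele is a germline one, so all cells of these mice carry it, and the labels do not say how many animals went into a preparation.

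A Rab protein cycles between a GTP-bound form, which sits on a membrane and recruits effectors, and a GDP-bound form, which escort proteins hold in the cytosol. Exchange factors (GEFs) switch it on and GTPase-activating proteins (GAPs) switch it off. Each Rab marks particular compartments, so the family sets out the routes of uptake, recycling, degradation and secretion. In macrophages these routes carry the LPS receptor TLR4 and its co-receptor CD14 between the Golgi, the plasma membrane and endosomes, and they carry newly made cytokines outward.

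The promoter windows below are those of Rab19, whose direction of change differed between the genotypes, of Rab20, which had the largest rise in WT cells, and of Rab40c, which had the largest fall. They run from 250 bases before to 50 bases after a RefSeq start site on build GRCm38.p6, and 41 members had such a window. Both strands were searched for an NF-kB type motif, GGGA followed by any base and then TTTCC, and for an interferon response type motif, GAAA followed by any 2 bases and then GAAA. Capitals mark overlapping matches to the interferon response type motif on the reverse strand.
Rab19, chr6:39381103-39381402, plus strand: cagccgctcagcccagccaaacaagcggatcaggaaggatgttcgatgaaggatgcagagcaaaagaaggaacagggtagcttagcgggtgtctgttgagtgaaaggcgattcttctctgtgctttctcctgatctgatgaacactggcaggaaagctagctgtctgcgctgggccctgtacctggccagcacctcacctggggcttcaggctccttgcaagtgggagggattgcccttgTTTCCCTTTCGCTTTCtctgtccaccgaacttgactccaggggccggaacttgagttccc
Rab20, chr8:11478591-11478890, minus strand: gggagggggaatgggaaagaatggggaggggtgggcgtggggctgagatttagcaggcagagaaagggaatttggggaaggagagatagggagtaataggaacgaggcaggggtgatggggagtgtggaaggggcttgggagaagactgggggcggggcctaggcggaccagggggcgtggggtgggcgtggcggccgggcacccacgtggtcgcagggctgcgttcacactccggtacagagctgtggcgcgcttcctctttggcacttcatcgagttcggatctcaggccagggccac
Rab40c, chr17:25919665-25919964, minus strand: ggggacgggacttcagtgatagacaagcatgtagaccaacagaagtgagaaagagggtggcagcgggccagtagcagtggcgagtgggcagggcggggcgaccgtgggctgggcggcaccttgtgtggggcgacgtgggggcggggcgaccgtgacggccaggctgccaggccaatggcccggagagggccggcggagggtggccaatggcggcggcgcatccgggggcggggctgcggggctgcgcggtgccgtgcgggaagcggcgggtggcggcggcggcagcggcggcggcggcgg
The interferon response type motif was found in the window of 1 of the 41 members, Rab19, and in 3.99% of 27025 genes with windows. The NF-kB type motif was found in 0 of the 41 members and in 0.466% of all genes. A match describes letters only, and the absence of these letters from the other windows says nothing about a factor.

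Total counts ran from 14939019 to 22143774 per library. Levels are CPM, counts scaled to one common library total after TMM scaling, which sets most genes level between libraries. Changes are log2 fold changes ± standard error (SE) between groups of 3 libraries, and an adjusted p is that of edgeR's quasi-likelihood test with Benjamini-Hochberg adjustment over 13294 genes. Calls were made where the adjusted p was below 0.05, and rose or fell is used only of called genes. Cd14 averaged 3.92 ± 0.79 CPM in untreated KO cells and 709 ± 411 CPM in untreated WT cells (SD, n = 3 each), a difference of -7.49 ± 0.62 in log2. Tnf rose by 8.08 ± 0.58 in KO cells and by 7.99 ± 0.57 in WT cells at 10 ng/ml LPS. With FN Tnf rose by 5.80 ± 0.52 in KO cells and by 8.15 ± 0.58 in WT cells. Il6 averaged 198 ± 121 CPM in KO and 616 ± 139 CPM in WT cells at 10 ng/ml LPS (SD, n = 3 each). With FN these levels were 2.29 ± 1.11 and 616 ± 114 CPM. For Cxcl10 they were 3353 ± 2038 and 13360 ± 2180 CPM at 10 ng/ml, and 160 ± 85 and 13800 ± 2891 CPM with FN. The 3 stimulus checks thus differed in how close the genotypes came at 10 ng/ml. The 12 microglia markers summed to between 8705 and 11950 CPM in every library. Sums of other lists were lower, at 157 to 488 CPM for 12 oligodendrocyte lineage genes and 11.7 to 48.1 for 10 astrocyte genes. The 3 measured genes of other leukocytes, 2 of them below 1 CPM throughout, summed to 0.275 to 8.16. The 10 vascular and fibroblast genes, 6 of them below 1 CPM throughout, summed to 20.9 to 37.1 CPM in KO cells at 10 ng/ml LPS, 3.30 to 6.84 in KO cells with FN, 24.2 to 55.4 in WT cells at 10 ng/ml and 20.7 to 48.7 in WT cells with FN, against 4.52 to 10.7 in untreated cells. This list moves with the stimuli and its part in the results was not tested. TMM factors were 0.648 to 0.773 in WT cells with FN and 0.668 to 0.770 in WT cells at 10 ng/ml LPS, against 1.18 to 1.30 in untreated WT cells, so the scaling moves every fold change between these groups. The library WT 0.1 ng/ml replicate 3 stood apart from its group for several members. Rn45s, a ribosomal RNA gene, took 3.62% of its counts, 8.21% in KO 0.1 ng/ml replicate 2, 5.92% in WT 10 ng/ml replicate 3, and at most 0.785% in the others. Libraries with the same replicate number deviated together within a genotype. Counts of calls from a fit with replicate blocks nested in the genotype are therefore given beside the main ones. That fit added calls, and values are given for only some of the genes concerned, so a gene not called below may be called with blocks.

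Per kilobase of exon, untreated WT microglia held most RNA of Rab5c, an early endosome GTPase, at 139 ± 5.3 CPM per kb (SD, n = 3). Next in order were Rab32, of lysosome-related organelles, at 86.6 ± 7.3, Rab31, a trans-Golgi and endosome GTPase, at 86.1 ± 3.0, Rab1b at 70.4 ± 5.8 and Rab1 at 66.9 ± 1.2 CPM per kb. The ranges of Rab32 and Rab31 over the 3 libraries overlapped, as did those of Rab1b and Rab1, so neither pair is ordered beyond its spread. Rab36, a Golgi-associated member, had the lowest mean of the 46 at 0.120 ± 0.014 CPM per kb, with a range that overlapped those of Rab3c and Rab15. In WT cells at 10 ng/ml LPS the order was different. Rab8b, an exocytic GTPase that was sixth in untreated cells, had the highest mean at 257 ± 27 CPM per kb, and Rab31 moved to place 13 with 45.2 ± 1.7 CPM per kb. The ranges of Rab8b, Rab5c (228 ± 16) and Rab32 (225 ± 47) overlapped there, so the order of these 3 is not beyond their spread.

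In WT cells 10 ng/ml LPS raised 19 of the 46 members and lowered 6, where 23.3% of all tested genes rose and 26.1% fell. FN called the same 25 genes in the same directions, where 23.7% of all genes rose and 26.5% fell. How many of all genes were called by both stimuli was not counted. The median log2 fold change at 10 ng/ml was 0.34 over the members and -0.01 over all genes. When libraries were scaled by total counts alone, the median of all genes was -0.80 at 10 ng/ml and -0.78 with FN, and the members split into 9 higher and 18 lower for each stimulus, where 10.9% of all genes were higher and 55.7% lower at 10 ng/ml, and 11.2% and 55.6% with FN. Under that scaling 14 of the 19 genes that rose kept a positive sign, 2 of them, Rab11a and Rab4b, were called lower, and all 19 lay above the median of all genes. The 6 genes that fell kept their calls. Each call below is therefore relative to the bulk of genes. With nested replicate blocks the WT calls were 26 higher and 9 lower at 10 ng/ml, where 34.1% and 36.1% of all genes were, and 27 higher and 11 lower with FN, where 35% and 37% were. Leaving out each library in turn, all but Rab6a and Rab18 of the 25 calls at 10 ng/ml held in every case. Rab6a had an adjusted p of 0.053 without WT 10 ng/ml replicate 1 and Rab18 one of 0.0548 without WT 10 ng/ml replicate 3. With FN 22 of 25 held, the exceptions being Rab18, Rab4b and Rab6a.

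**Figure D1:**
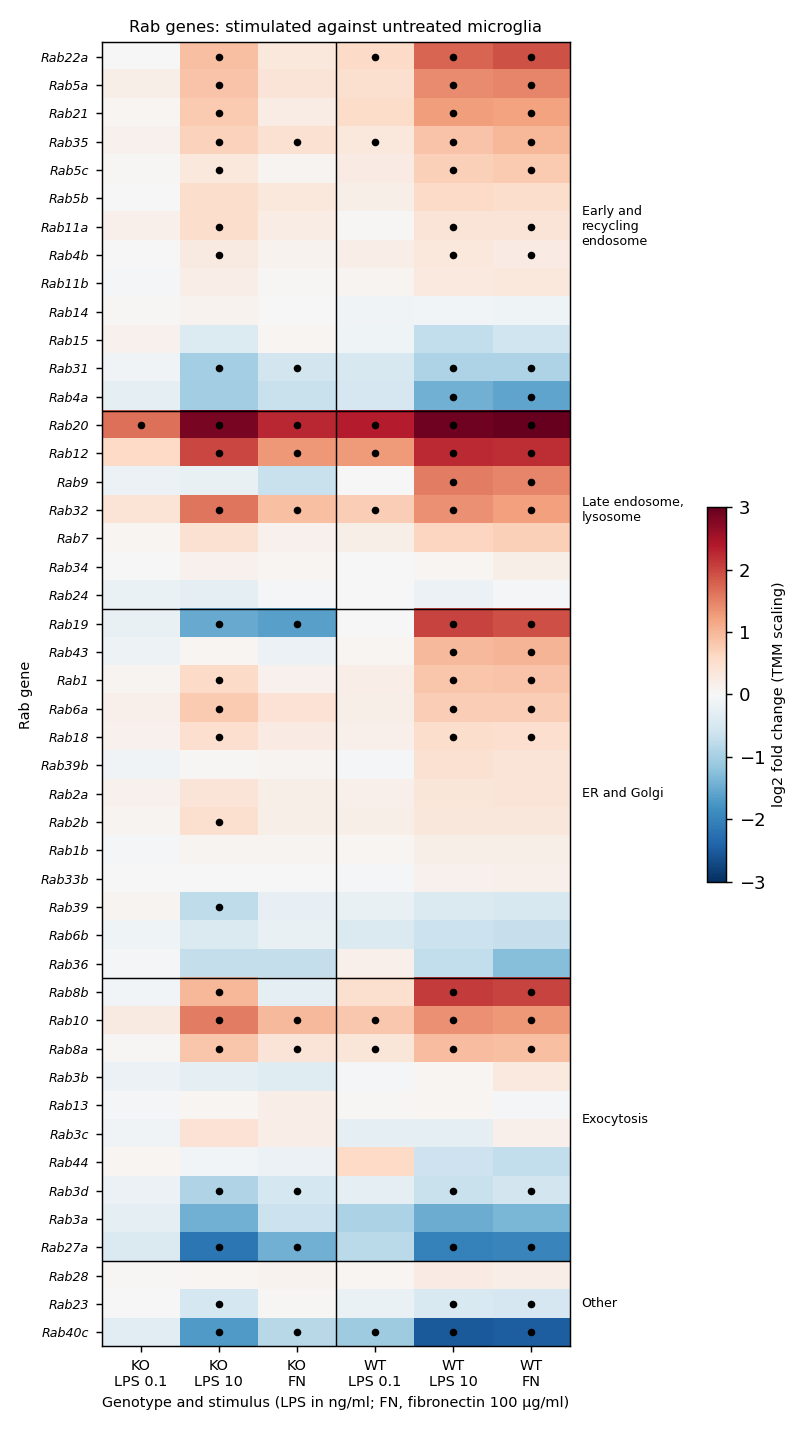
Heat map of log2 fold changes under TMM scaling for the 46 members (rows, grouped by role) for each stimulus against untreated cells of the same genotype (columns, KO left and WT right), with a dot where the adjusted p was under 0.05. The colour scale ends at 3, which Rab20 exceeds in WT cells with FN at 3.12; Rab19 is blue in the KO columns and red in the WT columns at 10 ng/ml LPS and with FN.

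Of the 13 members assigned to early and recycling endosomes, 7 rose and 2 fell in WT cells at 10 ng/ml LPS, beside 23.3% and 26.1% of all genes. The median change was 0.38. Rab5a, which drives fusion of early endosomes, had 178, 116 and 120 CPM in WT cells at 10 ng/ml LPS, 180, 113 and 135 CPM in WT cells with FN, and 62.0, 49.7 and 44.2 CPM in untreated WT cells. All stimulated libraries lay above all untreated ones. The rise was 1.41 ± 0.26 at 10 ng/ml (adjusted p = 0.00014) and 1.46 ± 0.26 with FN (9.9e-05). Rab22a, an early endosome GTPase close to Rab5 in sequence, had 138, 118 and 121 CPM at 10 ng/ml LPS, 153, 127 and 140 CPM with FN, and 37.4, 39.3 and 35.3 CPM untreated in WT cells. It rose by 1.75 ± 0.16 and 1.91 ± 0.16 with LPS and FN (adjusted p = 4.2e-08 and 1.6e-08), with no overlap. The nearest relative of Rab22a, Rab31, went the other way. Rab31 had 166, 179 and 171 CPM at 10 ng/ml LPS, 159, 178 and 179 CPM with FN and 330, 316 and 338 CPM untreated, a fall of 0.93 ± 0.17 for each stimulus (adjusted p = 0.00017 for both). Rab22a thus made up 27.9 ± 2.4% of the summed CPM per kb of this pair at 10 ng/ml LPS, 30.1 ± 3.3% with FN and 5.69 ± 0.48% in untreated WT cells (SD, n = 3 each). Rab4a, which serves fast recycling, had 0.661, 1.72 and 1.28 CPM at 10 ng/ml and 2.55, 3.12 and 4.39 CPM untreated in WT cells. It fell by 1.45 ± 0.42 (adjusted p = 0.0078) while its paralogue Rab4b rose by 0.33 ± 0.09 (0.0076), so Rab4a was 2.84 ± 1.25% of the pair per kb at 10 ng/ml and 9.16 ± 2.77% untreated. Counts of Rab4b are uncertain, since 58.1% of the 50-base words of its annotated transcripts also occur in transcripts of other genes, mostly Gm21983. Rab21, which binds integrins, rose by 1.25 ± 0.25, Rab35, of endosome to surface recycling, by 0.86 ± 0.10, Rab5c by 0.71 ± 0.10, and Rab11a, of slow recycling, by 0.38 ± 0.10.

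Of the 7 members of late endosomes, lysosomes and related organelles, 4 rose in WT cells at 10 ng/ml LPS and 0 fell, beside 23.3% and 26.1% of all genes. The median change was 1.38, which is the value of Rab32. Rab20, a GTPase of phagosome maturation, had 81.8, 92.1 and 84.8 CPM at 10 ng/ml LPS, 99.7, 90.4 and 108 CPM with FN, and 11.5, 12.6 and 10.1 CPM untreated in WT cells. Every stimulated library was far above every untreated one. Its rise was the largest of the family, at 2.92 ± 0.19 with LPS (7.56-fold, adjusted p = 7.2e-10) and 3.12 ± 0.19 with FN (4.0e-10). Transcripts of Rab20 shared 22.9% of their 50-base words with E230013L22Rik, annotated as a bidirectional promoter RNA, and the strand setting of the counts is not given in the sources used here. Rab12, which sends transferrin receptor to lysosomes, had 316, 277 and 269 CPM at 10 ng/ml LPS, 323, 277 and 254 CPM with FN, and 63.5, 66.4 and 53.2 CPM untreated. It rose by 2.23 ± 0.18 and 2.22 ± 0.18 (adjusted p = 9.0e-09 and 9.5e-09), without overlap. Rab9, of transport between late endosomes and the trans-Golgi network, had 113, 70.1 and 82.8 CPM at 10 ng/ml LPS, 110, 63.6 and 82.3 CPM with FN, and 34.5, 22.7 and 35.4 CPM untreated. The rise of Rab9 was 1.52 ± 0.26 at 10 ng/ml LPS and 1.47 ± 0.26 with FN (adjusted p = 7.2e-05 and 0.00010), again with no overlap. Rab32 rose by 1.38 ± 0.21 and 1.23 ± 0.20. Rab7, the main late endosome GTPase, is treated with the replicate pattern below. Rab34 and Rab24 were not called, at 0.06 ± 0.16 and -0.18 ± 0.17 with LPS. The count of Rab24 is uncertain, because 49.6% of the 50-base words of its transcripts also occur in Prelid1.

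**Figure D2:**
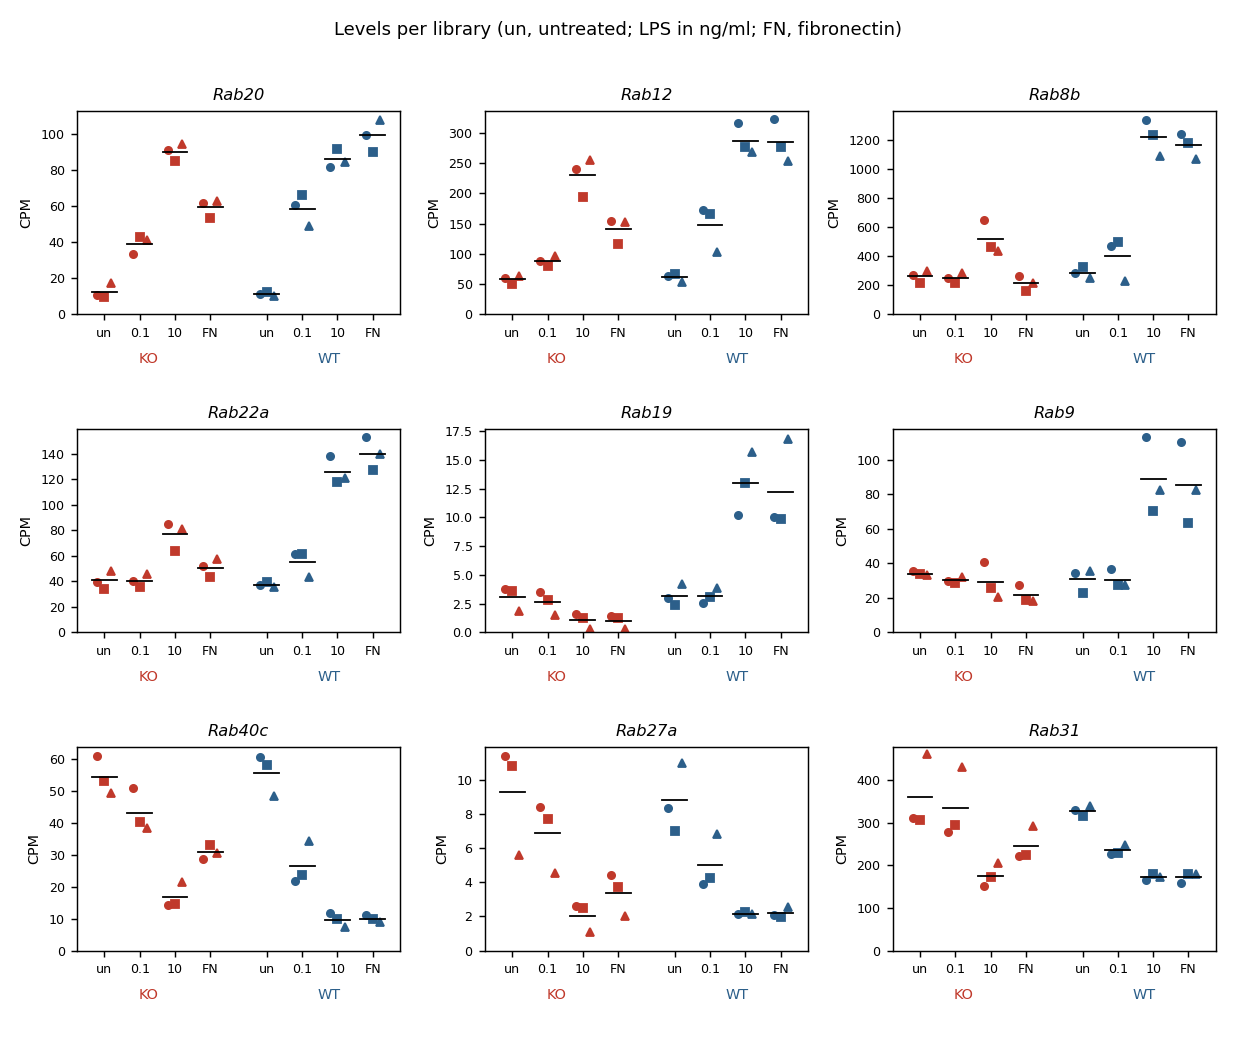
CPM per library for 9 members in KO cells (red) and WT cells (blue), untreated, at 0.1 and 10 ng/ml LPS and with FN; circles, squares and triangles are replicates 1, 2 and 3 and lines are means. Rab8b, Rab19 and Rab9 are high in WT cells at 10 ng/ml LPS and with FN, while in KO cells with FN they lie at or under most untreated libraries.

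Of the 13 members of the endoplasmic reticulum and Golgi, 5 rose in WT cells at 10 ng/ml LPS and 0 fell, beside 23.3% and 26.1% of all genes. The median change was 0.37. Rab19 had 10.2, 13.0 and 15.7 CPM at 10 ng/ml LPS, 10.0, 9.84 and 16.8 CPM with FN, and 2.96, 2.41 and 4.19 CPM untreated in WT cells. The groups did not overlap, and the rise was 2.02 ± 0.51 with LPS and 1.94 ± 0.50 with FN (adjusted p = 0.0025 and 0.0033). Rab43, of Golgi traffic, had 208, 195 and 110 CPM at 10 ng/ml LPS, 209, 178 and 141 CPM with FN and 93.3, 94.8 and 73.6 CPM untreated, a rise of 0.97 ± 0.29 and 1.01 ± 0.29. Its count is uncertain, because 74.5% of the 50-base words of its transcripts also occur in Gm45140. Rab1, of transport from the endoplasmic reticulum to the Golgi, rose by 0.83 ± 0.15, Rab6a, of retrograde Golgi transport, by 0.74 ± 0.22, and Rab18, found on lipid droplets, by 0.52 ± 0.16. Rab1b and Rab2a, of the same early secretory route, were not called, at 0.16 ± 0.09 and 0.37 ± 0.26, although with nested replicate blocks both were (adjusted p = 0.042 and 0.00022).

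Of the 10 members of exocytosis and secretion, 3 rose and 2 fell in WT cells at 10 ng/ml LPS, beside 23.3% and 26.1% of all genes. The median change was -0.11. Rab8b, of transport from the Golgi to the cell surface, had 1337, 1231 and 1086 CPM at 10 ng/ml LPS, 1236, 1179 and 1065 CPM with FN, and 284, 323 and 251 CPM untreated in WT cells. It rose by 2.09 ± 0.25 and 2.02 ± 0.25 (adjusted p = 1.1e-06 and 1.6e-06), with a wide gap between the groups. Its paralogue Rab8a rose by 0.94 ± 0.09 at 10 ng/ml, so that Rab8b made up 87.9 ± 2.1% of the pair per kb there and 76.5 ± 3.0% in untreated WT cells (SD, n = 3 each). Rab10, known in macrophages for carrying TLR4 to the plasma membrane, had 436, 358 and 404 CPM at 10 ng/ml LPS, 413, 362 and 367 CPM with FN, and 158, 159 and 144 CPM untreated. The rise of Rab10 was 1.38 ± 0.22 and 1.31 ± 0.22 (adjusted p = 4.1e-05 and 7.0e-05). Rab27a, a GTPase of secretory lysosomes and exosomes, had 2.15, 2.24 and 2.11 CPM at 10 ng/ml LPS, 2.09, 1.97 and 2.56 CPM with FN, and 8.37, 7.0 and 11 CPM untreated. It fell by 2.02 ± 0.37 and 1.99 ± 0.37 (adjusted p = 0.00016 and 0.00017), without overlap. Rab3d, of regulated secretion, had 25.8, 23.2 and 21.1 CPM at 10 ng/ml LPS and 38.3, 36.2 and 36.1 CPM untreated in WT cells, and fell by 0.66 ± 0.13 (adjusted p = 0.00023).

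Among the remaining 3 members, 2 fell in WT cells at 10 ng/ml LPS, beside 26.1% of all genes. Rab40c, an adaptor of a ubiquitin ligase with a SOCS box, had 11.8, 9.80 and 7.35 CPM at 10 ng/ml LPS, 11.1, 9.77 and 9.02 CPM with FN, and 60.6, 58.0 and 48.3 CPM untreated in WT cells. This was the largest fall of the family, by 2.52 ± 0.21 with LPS and by 2.48 ± 0.21 with FN (adjusted p = 1.2e-08 and 1.4e-08). Rab23, which limits Hedgehog signalling, had 6.11, 6.58 and 7.25 CPM at 10 ng/ml LPS and 9.35, 9.89 and 8.29 CPM untreated, a fall of 0.46 ± 0.13 (adjusted p = 0.0061).

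At 0.1 ng/ml LPS WT cells raised 7 members and lowered 1, where 9.94% of all genes rose and 5.66% fell. The 7 were Rab20 at 2.37 ± 0.18, Rab12 at 1.27 ± 0.18, Rab10 at 0.80 ± 0.22, Rab32 at 0.74 ± 0.20, Rab22a at 0.56 ± 0.16, Rab8a at 0.36 ± 0.09 and Rab35 at 0.33 ± 0.10, and the fall was Rab40c at -1.07 ± 0.20. Rab20 had 60.7, 66.5 and 49.0 CPM in WT cells at 0.1 ng/ml. Rab8b had 466, 498 and 229 CPM there, with replicate 3 inside the untreated range, and was not called at 0.48 ± 0.24. Rab20, Rab12 and Rab40c kept their call without any 1 library, and the other 5 lost it without at least 1, so that 3 calls were left without WT 0.1 ng/ml replicate 1 and 5 without its replicate 2. Leaving out an untreated WT library left 5, 5 and 4 calls without replicates 1, 2 and 3. Under nested replicate blocks 13 rose and 7 fell at 0.1 ng/ml, where 21.2% and 20.4% of all genes did, and with total counts alone the split was 3 higher and 3 lower, where 6.96% and 12% of all genes were.

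Between the doses, 16 members were higher and 3 lower at 10 than at 0.1 ng/ml LPS in WT cells, where 14.8% of all genes were higher and 17.4% lower. The largest differences were Rab19 at 2.04 ± 0.51, Rab8b at 1.61 ± 0.25, Rab9 at 1.54 ± 0.26 and Rab22a at 1.19 ± 0.16. Rab19 and Rab9 had 2.52, 3.07 and 3.88 CPM and 37.0, 27.3 and 27.4 CPM at 0.1 ng/ml, close to their untreated levels. Rab20 differed less between the doses, by 0.55 ± 0.18. Scaling by total counts alone gave 5 higher and 12 lower, where 6.32% and 46% of all genes were, and nested replicate blocks gave 23 higher and 7 lower, where 27.9% and 29.1% of all genes were. The calls fell to 10 without WT 0.1 ng/ml replicate 3 and to 12 without WT 10 ng/ml replicate 1.

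FN and 10 ng/ml LPS were not told apart in WT cells for any member. In the direct comparison 0 members and 0 genes were called by edgeR, and 0 by DESeq2, with 0 members and 105 genes at an unadjusted p under 0.05. Nested replicate blocks also called 0 members and 0 genes. The median absolute log2 difference over the members was 0.06. In the fit without blocks the median 95% interval, not adjusted for the number of genes, reached 0.45 to each side. That fit could thus miss differences of this size, and somewhat larger ones, for a typical member.

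In KO cells 10 ng/ml LPS raised 17 members and lowered 7, where 21.2% of all genes rose and 21.6% fell. Of these, 22 were also called in WT cells at that dose, Rab4a, Rab9 and Rab43 were called only in the WT comparison, and Rab2b and Rab39 only in the KO one. Of these 5, Rab9 alone differed in response between the genotypes at this dose by the test given further on. Rab2b overlapped between the KO groups, and 57.0% of the 50-base words of its transcripts also occur in other genes, mostly Gm43766. How many of all genes were called in both genotypes was not counted. Without each library in turn 16 of the 24 calls held, and Rab18, Rab19, Rab21, Rab2b, Rab39, Rab4b, Rab5a and Rab5c lost theirs in at least 1 case. Rab20 had 91.2, 85.1 and 94.9 CPM in KO cells at 10 ng/ml LPS and 10.6, 9.49 and 17.5 CPM in untreated KO cells, a rise of 2.85 ± 0.19 (adjusted p = 2.1e-09). Rab12 rose by 2.0 ± 0.18, Rab32 by 1.60 ± 0.21, Rab10 by 1.55 ± 0.22 and Rab8b by 0.99 ± 0.24. Rab27a fell by 2.17 ± 0.37, Rab40c by 1.70 ± 0.20, Rab31 by 1.03 ± 0.17 and Rab3d by 0.89 ± 0.13. Rab19 had 1.63, 1.26 and 0.339 CPM at 10 ng/ml LPS and 3.76, 3.59 and 1.83 CPM untreated in KO cells, from 25, 25 and 5 counts and 78, 98 and 33 counts. It fell by 1.5 ± 0.52 (adjusted p = 0.024), and this call was lost without KO 10 ng/ml replicate 3, where the adjusted p was 0.103, and without untreated KO replicate 1 or 2. With total counts alone the KO split at 10 ng/ml was 8 higher and 14 lower, where 11.3% and 42.3% of all genes were, with their median at -0.50, and nested replicate blocks gave 20 higher and 11 lower, where 31.8% and 34.2% of all genes were.

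At 0.1 ng/ml LPS KO cells raised 1 member, Rab20, where 0.722% of all genes rose and 0.00752% fell. Rab20 had 33.3, 42.9 and 41.4 CPM in KO cells at that dose, above all 3 untreated KO libraries, a rise of 1.65 ± 0.18 (adjusted p = 3.3e-05). This call held without each library in turn, but a fit of these 2 groups alone gave an adjusted p of 0.098. Rab12, at 87.4, 80.6 and 95.7 CPM against 59.3, 50.9 and 62.9 CPM in untreated KO cells, did not overlap between the groups and was not called at 0.61 ± 0.17 (adjusted p = 0.18). Nested replicate blocks added Rab12 (0.61, adjusted p = 0.00052) and Rab32 (0.42, 0.010), where 3.08% of all genes rose and 0.797% fell.

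With FN KO cells raised 6 members and lowered 5, where 9.23% of all genes rose and 7.17% fell. Rab20 had 62.1, 53.7 and 62.9 CPM in KO cells with FN and rose by 2.25 ± 0.18, Rab12 had 155, 116 and 153 CPM and rose by 1.29 ± 0.18. Rab10 rose by 0.96 ± 0.22, Rab32 by 0.90 ± 0.20, Rab35 by 0.45 ± 0.10 and Rab8a by 0.39 ± 0.09. The falls were Rab19 at -1.63 ± 0.51, Rab27a at -1.45 ± 0.36, Rab40c at -0.82 ± 0.20, Rab31 at -0.55 ± 0.17 and Rab3d at -0.54 ± 0.13. Those of Rab19, Rab27a and Rab31 were lost without some libraries. The highest adjusted p was 0.141 for Rab19 and 0.0539 for Rab27a, both without KO FN replicate 3, and 0.214 for Rab31 without untreated KO replicate 3. The nested replicate blocks left 12 that rose and 7 that fell, where 21.5% and 22.5% of all genes did, and total counts alone gave 5 higher and 6 lower, where 6.61% and 8.7% did.

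Unlike in WT cells, FN and 10 ng/ml LPS differed for members in KO cells. With FN 8 members were lower and 2 higher than with LPS, where 9.43% of all genes were lower and 7.55% higher. Rab8b was lower by 1.28 ± 0.24 in log2 (adjusted p = 0.0012), and Rab12, Rab32, Rab20, Rab22a, Rab8a, Rab1 and Rab11a were lower as well. Rab40c was higher by 0.88 ± 0.20 (0.0049) and Rab23 by 0.57 ± 0.13 (0.0056). Only 4 of the 10 calls held without each library in turn, the count was 4 without KO FN replicate 2 and 6 without KO 10 ng/ml replicate 1, and total counts alone gave 8 higher and 2 lower, where 24.7% and 5.32% of all genes were, so the turn in direction is that of all genes. Nested replicate blocks gave 6 higher and 20 lower, where 22.1% and 22.7% of all genes were. Whether FN and LPS differ more in KO than in WT cells was not tested as such.

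Genotypes were compared by subtracting the WT response to a stimulus from the KO response. For FN, 13 members had a lower and 2 a higher response in KO cells, where 11.3% of all genes had a lower and 11.8% a higher one. Rab19 had 1.41, 1.22 and 0.30 CPM in KO cells with FN and 3.76, 3.59 and 1.83 CPM in untreated KO cells, while it rose in WT cells. Its difference in response was -3.57 ± 0.72 (adjusted p = 0.0012). Rab8b had 260, 161 and 214 CPM in KO cells with FN, within or under the 268, 217 and 295 CPM of untreated KO cells, against the 1065 to 1236 CPM of WT cells with FN. The difference in response was -2.32 ± 0.34 (adjusted p = 6.9e-05). Rab8b accordingly made up 63.3 ± 6.5% of the Rab8a and Rab8b sum per kb in KO cells with FN and 73.8 ± 3.2% in untreated KO cells. Rab9 had 27.3, 19 and 18.5 CPM in KO cells with FN, all below the 35.7, 33.6 and 33.1 CPM of untreated KO cells, with a difference of -2.13 ± 0.36 (0.00028). Its fall in KO cells was not called, at -0.66 ± 0.26, and was with nested blocks (-0.68, adjusted p = 0.0019).

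Rab22a had 51.7, 43.5 and 57.2 CPM in KO cells with FN and 39.8, 34.3 and 48.3 CPM in untreated KO cells, overlapping, and its response differed by -1.59 ± 0.22 (adjusted p = 4.0e-05). Rab40c had 28.7, 33.0 and 30.5 CPM in KO cells with FN and 60.8, 52.9 and 49.4 CPM in untreated KO cells. It thus fell in KO cells too, but by less, with a difference of 1.65 ± 0.28 (0.00026). Rab43 had 89.9, 67.1 and 64.1 CPM in KO cells with FN and 106, 77.8 and 66.9 CPM in untreated KO cells, and a difference of -1.20 ± 0.40 (0.039). The further lower responses were Rab5a at -1.07 ± 0.36, Rab21 at -0.97 ± 0.35, Rab12 at -0.93 ± 0.24, Rab20 at -0.87 ± 0.25, Rab1 at -0.71 ± 0.20, Rab5c at -0.70 ± 0.14, Rab35 at -0.54 ± 0.14 and Rab8a at -0.50 ± 0.13, and the further higher one was Rab23 at 0.56 ± 0.18. By role, 5 of 13 early and recycling, 3 of 7 late endosome, 3 of 13 endoplasmic reticulum and Golgi and 2 of 10 exocytic members had a lower response. Of all genes 11.3% had one. Of the 15 calls 10 held without each library in turn. Those of Rab21, Rab23, Rab43, Rab5a and Rab1 did not, with a highest adjusted p of 0.178 for Rab21 and 0.0546 for Rab1 without untreated KO replicate 3, 0.0971 for Rab23 and 0.116 for Rab5a without WT FN replicate 1, and 0.112 for Rab43 without untreated KO replicate 1.

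With total counts alone the median of all genes in this comparison was 0.65, and 11 members had a higher and 4 a lower response, where 37.6% and 6.08% of all genes did. All 13 lower responses still lay under that median, 11 kept a negative sign and 4 kept their call. Nested replicate blocks gave 6 higher and 15 lower, where 26.1% and 23.2% of all genes were called.

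**Figure D3:**
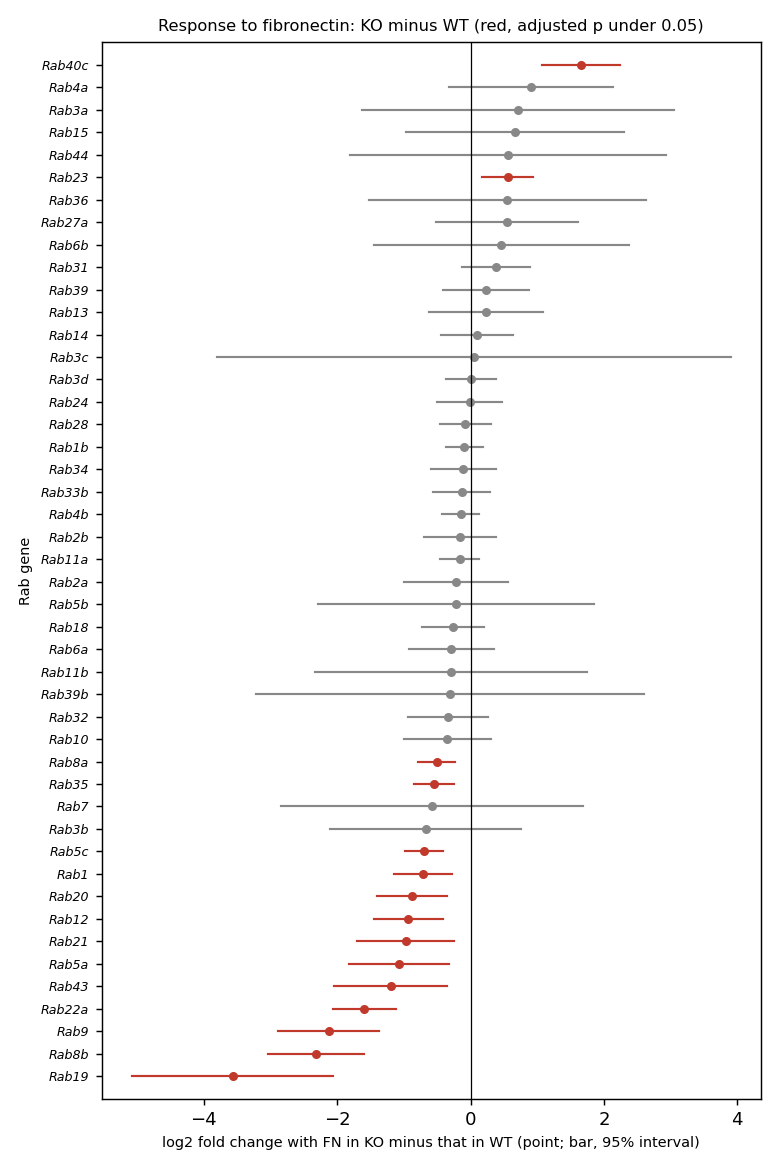
Difference in the log2 fold change with FN, KO minus WT, for each member under TMM scaling, with the point estimate and its 95% interval; red marks an adjusted p under 0.05. Rab40c and Rab23 are the 2 members called higher in KO cells and Rab19, at -3.57, is the farthest of the 13 called lower; with total counts alone Rab35 and Rab8a change sign.

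At 10 ng/ml LPS 3 members had a lower response in KO cells and 0 a higher one, where 3.32% and 1.96% of all genes did. Rab19 differed by -3.52 ± 0.72 (adjusted p = 0.0068), Rab9 by -1.75 ± 0.36 (0.0072) and Rab22a by -0.84 ± 0.22 (0.031). Rab9 had 41.1, 25.8 and 20.5 CPM in KO cells at 10 ng/ml LPS, on both sides of the untreated KO level, and Rab22a had 84.8, 64.1 and 81.2 CPM, above all untreated KO libraries. Rab8b, at 650, 459 and 437 CPM in KO cells at this dose, rose in KO cells but less than in WT cells, with a difference of -1.10 ± 0.34 that was not called (0.070). The call of Rab22a was lost without 9 of the 12 libraries, with the highest adjusted p at 0.099 without untreated KO replicate 3, and those of Rab19 and Rab9 held without each. Under nested replicate blocks 0 were higher and 7 lower, where 11.3% and 10.4% of all genes were called, Rab8b (-1.11, adjusted p = 0.0031), Rab43, Rab5a and Rab5c being added. Total counts alone gave 2 higher and 3 lower, where 6.97% and 1.99% of all genes were, and the 3 main calls held.

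At 0.1 ng/ml LPS 0 members differed in response by edgeR and 0 by DESeq2, where 0.188% of all genes were higher and 2.11% lower in KO cells. An unadjusted p under 0.05 was reached by 5 members and 1359 genes. Rab20 was at -0.72 ± 0.25 and Rab12 at -0.66 ± 0.24. With nested replicate blocks 1 was higher and 4 lower, where 5.75% and 7.64% of all genes were called, the lower ones being Rab12, Rab20, Rab22a and Rab8a.

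Between untreated KO and untreated WT cells 0 members were called by edgeR without blocks, where 0% of all genes were higher and 0.00752% lower, and 2 members and 130 genes had an unadjusted p under 0.05. Rab6b, a Golgi GTPase known mainly from neurons, had 6.27, 8.69 and 3.11 CPM in untreated KO cells and 23.2, 25.1 and 8.19 CPM in untreated WT cells. Replicate 3 was the lowest library in both genotypes and the groups overlapped, with a difference of -1.64 ± 0.65. An edgeR fit with blocks by replicate number across genotypes called Rab6b, at -1.63 ± 0.13 (adjusted p = 1.6e-06). In that fit 0.0226% of all genes were higher and 0.12% lower. Same-numbered libraries of the 2 genotypes deviated together less clearly than those within a genotype, so that pairing is uncertain. In the other treatments Rab6b had 2.03 to 8.26 CPM in KO cells and 5.59 to 21.0 CPM in WT cells. It was not called for any stimulus. Rab3c, Rab3a, Rab39b and Rab15, of which Rab3a and Rab3c act in synaptic vesicle release, were among the 10 lowest members per kb in untreated WT cells. Rab3c had 4.66 to 7.11 CPM in the 4 KO libraries numbered 2, at most 1.05 CPM in the other 8 KO libraries, and 0.416 to 3.23 CPM in WT libraries. The 9 measured neuron markers summed to 80.1 to 108.5 CPM in the KO libraries numbered 2, to 14.2 to 19.99 CPM in the other KO libraries, and to 11.4 to 55.3 CPM in WT libraries, and their part in the level of Rab3c was not tested. In bulk libraries fewer cells of a type and less RNA per cell cannot be told apart.

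The spread between replicates decided the call for 3 of the best known members. Rab7 had 121, 38.5 and 47.3 CPM in untreated KO cells and 122, 40.7 and 37.9 CPM in untreated WT cells, with replicate 1 the highest in both. The same held for Rab5b, an early endosome GTPase, and for Rab11b, of recycling endosomes. In all 8 groups replicate 1 was at least 2 times as high as both others for these 3 members, as for 4.08% of all tested genes. The ratio of replicate 1 to the mean of the others was 2.82 to 3.58 for Rab7, 2.64 to 3.11 for Rab5b and 2.57 to 3.08 for Rab11b over the groups. Rab5c, the close relative of Rab5b, had ratios of 0.963 to 1.09. Of the 50-base words of their transcripts, 12.7% for Rab7, 9.8% for Rab5b and 13.6% for Rab11b occur in other genes, mostly processed pseudogenes, and the part of such reads in the pattern was not tested. The neuron markers summed to 11.4 to 17.8 CPM in the 4 WT libraries numbered 1 and to 29.1 to 55.3 CPM in the other 8 WT libraries. The 3 measured genes of other leukocytes went the other way, with sums of 2.08 to 8.16 CPM in the 8 libraries numbered 1 and 0.275 to 1.63 CPM in the other 16. Replicate 1 of this sum was at least 2 times as high as both others in all 8 groups. S100a8 and Ms4a1 reached at most 0.51 and 0.28 CPM, so the sum in the libraries numbered 1 is mostly that of 1 gene, Ccr2. The part of neurons or other leukocytes in the pattern was not tested.

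None of the 3 was called for a stimulus in the fit without blocks, with SEs of 0.68 to 0.77. With nested replicate blocks Rab7 rose in WT cells by 0.59 at 10 ng/ml LPS and by 0.71 with FN (adjusted p = 1.3e-07 and 9.0e-09), Rab5b by 0.54 and 0.48 (7.1e-07 and 3.0e-06), and Rab11b by 0.30 and 0.29 (0.00079 and 0.0010). For Rab7 every stimulated WT library at 10 ng/ml, at 201, 57.4 and 54.8 CPM, lay above the untreated WT library of its own number.

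**Figure D4:**
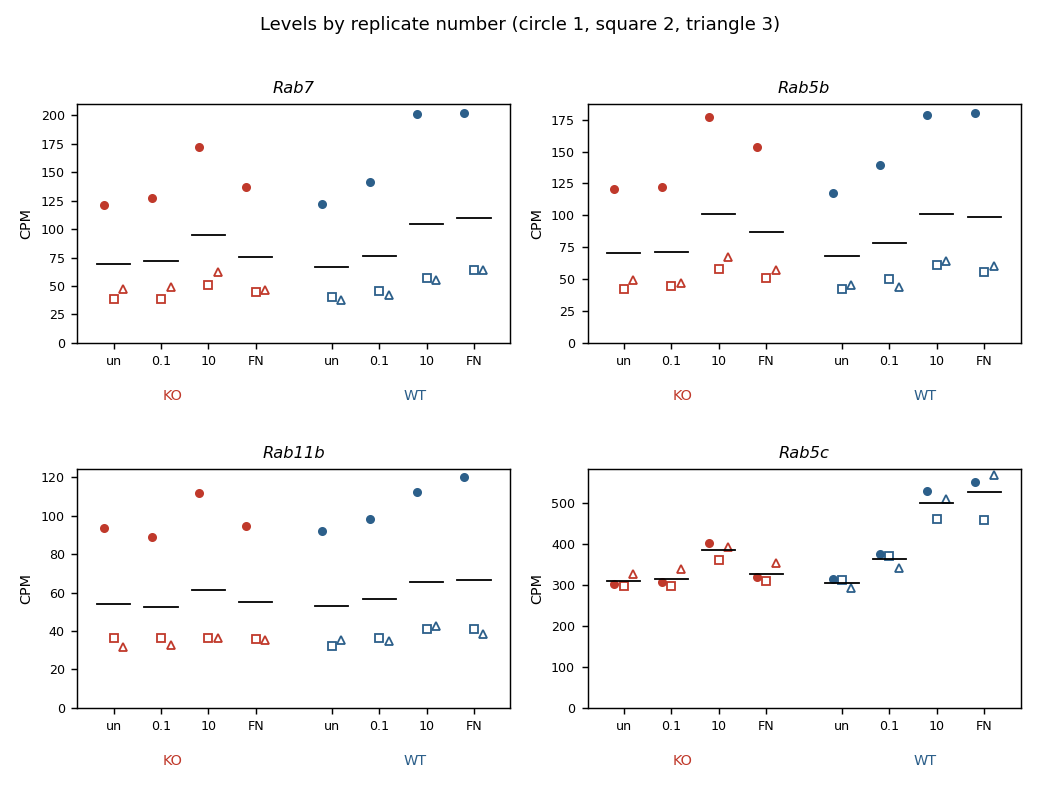
CPM per library of Rab7, Rab5b, Rab11b and, for comparison, Rab5c in KO cells (red) and WT cells (blue), untreated, at 0.1 and 10 ng/ml LPS and with FN; circles, squares and triangles are replicates 1, 2 and 3 and lines are means. Replicate 1 of Rab7, Rab5b and Rab11b is at least 2 times as high as both others in all 8 groups. That of Rab5c lies close to the others, at 0.963 to 1.09 times their mean.

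In the fit without blocks 19 of the 46 members were called for no stimulus in either genotype and 27 for at least 1. Of all tested genes 57.8% were called for at least 1 stimulus, so the count for the members is at the background. Of the 19, the 3 with the highest mean CPM, a measure not scaled for length, were Rab14, Rab1b and Rab2a. Rab14, which works between the Golgi and endosomes, had 286.5, 248.9 and 323.3 CPM in KO cells at 10 ng/ml LPS and 258, 204 and 335 CPM in untreated KO cells. It had 271, 222 and 222 CPM in WT cells at 10 ng/ml LPS and 283, 241 and 236 CPM in untreated WT cells. The groups overlapped in both genotypes, and the log2 fold changes were 0.11 ± 0.18 in KO cells and -0.09 ± 0.18 in WT cells. Rab1b had 201, 184 and 153 CPM in WT cells at 10 ng/ml LPS and 169, 166 and 145 CPM in untreated WT cells, and Rab2a had 163, 103 and 93.2 CPM and 114, 81.5 and 82.8 CPM there.

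Genes that switch Rabs on or off moved in both directions. In WT cells at 10 ng/ml LPS 11 of 33 tested exchange factors rose and 10 fell, with a median of -0.07. That is 33.3% and 30.3% of the list, beside 23.3% and 26.1% of all genes. Rabgef1, which activates Rab5, rose by 2.11 ± 0.18, Rab3ip, which activates Rab8, by 1.51 ± 0.18, and Rin3, of the Rab5 family, by 1.45 ± 0.35. Rab3il1, a relative of Rab3ip, fell by 4.34 ± 0.29, Dennd2c by 2.39 ± 0.20 and Hps4, part of the exchange factor of Rab32, by 1.70 ± 0.17. Of 36 GAPs 6 rose (16.7%, beside 23.3% of all genes) and 17 fell (47.2%, beside 26.1%), with a median of -0.48, beside -0.01 for all genes. Tbc1d1, which acts on Rabs of glucose transporter traffic, rose by 3.12 ± 0.21, Tbc1d13, which acts on Rab35, by 1.61 ± 0.18, and Usp6nl, which acts on Rab5, by 1.21 ± 0.39. Tbc1d2, which acts on Rab7, fell by 3.22 ± 0.36, Tbc1d24 by 2.30 ± 0.15 and Tbc1d8 by 2.1 ± 0.30.

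Of 8 escort, GDI and prenylation genes 1 rose and 1 fell, 12.5% each way beside 23.3% and 26.1% of all genes. Both were Rab escort proteins, Chm at 0.41 ± 0.12 and Chml at -0.79 ± 0.24. Of 45 effectors 14 rose and 14 fell, 31.1% each way beside 23.3% and 26.1% of all genes, with a median of -0.01. Rab11fip1, an effector of Rab11, rose by 5.22 ± 0.56 while its relative Rab11fip5 fell by 1.85 ± 0.31. Inpp5b, a phosphoinositide phosphatase, rose by 2.69 ± 0.18 and Micall2, an effector of Rab8 and Rab13, by 2.5 ± 0.42. Plekhm1, an effector of Rab7, fell by 2.27 ± 0.22 and Mical1 by 2.03 ± 0.19. In KO cells with FN the GAPs had 2 rises and 8 falls, the exchange factors 4 and 3, and the effectors 9 and 4. These are 5.56% and 22.2% of the GAPs, 12.1% and 9.09% of the exchange factors and 20% and 8.89% of the effectors, beside 9.23% and 7.17% of all genes, so the exchange factor counts are near the background.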

How the data were processed

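Per the labels' protocols RNA was taken with Trizol and libraries were made with a TruSeq RNA kit. Per the submitters' processing notes, the build was mm10 and the tools included HTSeq 0.5.4, Bowtie2 2.1.0, DESeq and CASAVA 1.8.2, besides SAMtools 0.1.19. The deposited count table holds whole read counts per gene, which the authors made before any scaling. The deposited normalized table holds a signal that equals those counts divided by 1 factor per library, and it served only to choose the members. Annotation and strand setting are not given in the sources used here.

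Counts were fitted with edgeR 4.0.16 (limma 3.58.1, R 4.3.3) by quasi-likelihood over 8 groups and 24 libraries, with TMM scaling, a filter at a count of 10 (total 15), robust estimation, a prior count of 0.125 and 16 residual degrees of freedom. P-values were adjusted over 13294 genes. The SE is the absolute log2 fold change over the square root of F. DESeq2 1.42.0, other scalings, no filter, replicate blocks and libraries left out were the alternatives. Same-numbered libraries of a genotype deviated together, with correlations of 0.556 to 0.952 over 36 pairs and 8508 genes, whereas those of the 2 genotypes under the same treatment had 0.0934 to 0.812 over 12 pairs. The blocks are therefore nested in the genotype, and the pairing comes from the replicate numbers in the labels. In the main fit p-values measure the spread between the preparations of a group. With nested blocks they measure the spread left after the shared deviations of same-numbered libraries are removed.

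The members and gene lists were chosen with earlier results of these data known. Values per library are given for the members called in WT cells at 10 ng/ml LPS without overlap (at most 8 per direction, by size), those called between genotypes (at most 6 per contrast) or in KO cells at 0.1 ng/ml, and the 3 uncalled members with the highest mean CPM. Regulators are named at most 3 per list and direction. Rab6b, Rab3c, Rab7, Rab5b and Rab11b were singled out after their values were seen. Protein sequences were not used here.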

Additional observations from a re-analysis of the deposited data

Results flagged for a closer look

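The response to FN differed between KO and WT cells for 15 members by the test of the difference itself (edgeR, adjusted p under 0.05). Of these 13 were lower and 2 higher in KO cells, where 11.3% of all genes were lower and 11.8% higher. Among them Rab19 differed by -3.57, Rab8b by -2.32, Rab9 by -2.13, Rab40c by 1.65, Rab22a by -1.59 and Rab43 by -1.20 on the log2 scale, KO minus WT. The same test at 10 ng/ml LPS called 3 members, Rab19 at -3.52, Rab9 at -1.75 and Rab22a at -0.84. There 3.32% of all genes were lower and 1.96% higher. The calls of Rab43 with FN and of Rab22a at 10 ng/ml LPS were each lost without 9 of 12 libraries. Rab19 is the one member of all those named here whose called direction was opposite in the genotypes, with a fall in KO cells and a rise in WT cells under both stimuli. Its KO counts were 5 to 30 per library under these stimuli, and in a fit of the 2 KO groups alone its falls were not called, with an adjusted p of 0.114 at 10 ng/ml LPS and 0.153 with FN.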

How the results depend on the processing

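Scaling by total counts alone reversed the sign of 21 of 144 gene results. In WT cells at 10 ng/ml LPS these were Rab11a (-0.42), Rab18 (-0.28), Rab1b (-0.63), Rab2a (-0.44), Rab4b (-0.47), Rab5c (-0.090) and Rab6a (-0.061). With FN in WT cells they were Rab11a (-0.42), Rab18 (-0.28), Rab4b (-0.53), Rab5c (-0.0042) and Rab6a (-0.068), and in KO cells at 10 ng/ml Rab2b (-0.0088), Rab4b (-0.23) and Rab5c (-0.17). In the KO minus WT response to FN they were Rab35 (0.11) and Rab8a (0.15), between the doses in WT cells Rab11a (-0.21), Rab35 (-0.020) and Rab5c (-0.098), and between FN and LPS in KO cells Rab11a (0.024). This follows from the shift of all genes under that scaling. It also gave 5 calls in the genotype difference at 10 ng/ml LPS, as did DESeq2 and blocks by replicate number across genotypes. Of all genes DESeq2 called 364 of 11369 higher and 669 lower there, and blocks by number 580 of 13294 higher and 700 lower.

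With nested replicate blocks the calls were 20 for 0.1 ng/ml and 38 for FN in WT cells, 3 for 0.1 ng/ml and 19 for FN in KO cells, 30 between the WT doses, 26 between FN and LPS in KO cells, and 5 and 7 for the genotype difference at 0.1 and 10 ng/ml. No call was lost with these blocks, and they could not be fitted for untreated KO against WT cells. Blocks by number gave 17 calls between FN and LPS in KO cells, where 1651 of 13294 genes were higher and 1888 lower. For untreated KO against WT cells they gave 1, Rab6b at -1.63, where 3 genes were higher and 16 lower. A fit of the groups compared alone gave 5 calls at 0.1 ng/ml in WT cells, where 937 of 12220 genes rose and 527 fell. In KO cells it gave 0 at 0.1 ng/ml (51 of 11975 genes rose, 1 fell) and 5 with FN (778 of 11997 rose, 585 fell). Between FN and LPS in KO cells it gave 5, where 316 of 11820 genes were higher and 718 lower. The cause was not tested. Without the 3 libraries richest in Rn45s there were 11 calls between the WT doses, where 1109 of 13410 genes were higher and 1297 lower. The genotype difference at 0.1 ng/ml then had 1 call, where 99 genes were higher and 378 lower. Leaving out the 8 libraries numbered 1 was a choice made after seeing the data, and left fewer samples and 13212 tested genes. There were then 3 calls at 0.1 ng/ml in WT cells (all genes: 648 higher, 154 lower) and 12 between the WT doses (1405 and 1489). In KO cells there were 4 with FN (650 and 355) and 0 between FN and LPS (221 and 509). The genotype differences had 5 with FN (679 and 901) and 1 at 10 ng/ml (43 and 106).

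Leaving out each library in turn gave 3 to 9 calls at 0.1 ng/ml, 25 to 25 at 10 ng/ml and 23 to 25 with FN in WT cells, and 1 to 1, 18 to 25 and 9 to 11 in KO cells. It gave 10 to 19 between the WT doses, 0 to 0 between FN and LPS in WT cells, 4 to 9 between them in KO cells, 0 to 1, 2 to 4 and 10 to 13 in the genotype differences at 0.1 and 10 ng/ml and with FN, and 0 to 0 for untreated KO against WT cells. Shares of all genes are not given for these fits. DESeq2 left 142 of the 144 gene results on their side of the threshold. Rab19 and Rab4a had as few as 5 and 7 counts in a library, which limits the precision of their values.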
